A study of Drosophila melanogaster with 3 samples.

Results

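Eip75B (FBgn0000568) is an ecdysone-induced nuclear receptor gene on chromosome arm 3L, and 10 of the 5056 reproducible binding peaks of the CG4318 protein in whole Drosophila melanogaster prepupae lay at it. The 10 peaks were chosen by a measured value: each summit, the base of highest signal in a peak, fell inside the gene body or within 2 kb of it in the list of peaks that passed the authors' threshold on the irreproducible discovery rate (IDR). Their number, place and signal score are therefore described without a test. Chromatin immunoprecipitation and sequencing (ChIP-seq) with an anti-GFP antibody was carried out on 3 biological replicates that form 1 group, all expressing a CG4318-eGFP fusion protein; the transgenic strain, labelled CG4318-GFP, stably carries GFP at the C terminus of CG4318. Each replicate was made from whole prepupae of pooled sex, the stage between larva and pupa, and all 3 carried the transgene; the labels do not say what drives it, and no sample without it was analysed here. Because whole animals were used, a larger number of bound cells and stronger binding per cell cannot be told apart.

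Eip75B is among the early genes that respond directly to the steroid hormone ecdysone, whose pulses drive moulting and metamorphosis in insects. It encodes receptors related to the vertebrate Rev-Erb proteins, which hold heme and respond to gases such as nitric oxide. Its transcripts start at separate promoters, and its protein isoforms differ in their amino-terminal parts. In the annotation used here the 7 transcripts hold 5 distinct sets of coding exons, as RF, RE and RB share theirs. Protein isoform B lacks part of the DNA-binding domain. It can bind the receptor Hr3 in prepupae and block the activation of the next receptor gene of the cascade, ftz-f1.

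The gene body spans chr3L:17950953-18064696 in build dm6, is 113744 bp long and is transcribed from the minus strand, so that the highest coordinate is the most upstream one. The annotation gives 7 isoforms with 7 start sites, which have 2 exons in common near the 3′ end. Peaks are lettered A to J in the direction of transcription. The sequences of 6 peaks are shown because they are the strongest peak (D), the peak nearest to a start site of the gene (G) and the next 4 by signal score. Each is written on the plus strand of the Release 6 reference, 5′ to 3′, and capitals mark its longest run of A and T. For peak G the 100 bases before the start site of isoform RC are shown and the transcribed bases are left out; each of the others is a window of 101 bases centred on the summit.
Peak C, chr3L:18011869-18011969: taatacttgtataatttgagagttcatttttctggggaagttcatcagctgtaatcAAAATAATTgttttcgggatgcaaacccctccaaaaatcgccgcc
Peak D, chr3L:18009126-18009226: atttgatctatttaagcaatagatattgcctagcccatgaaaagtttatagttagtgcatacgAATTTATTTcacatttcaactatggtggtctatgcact
Peak F, chr3L:18005142-18005242: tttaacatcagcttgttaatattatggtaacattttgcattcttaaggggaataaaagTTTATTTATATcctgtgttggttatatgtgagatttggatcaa
Peak G, chr3L:17999822-17999921: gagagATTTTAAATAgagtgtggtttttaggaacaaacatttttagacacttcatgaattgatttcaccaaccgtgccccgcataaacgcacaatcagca
Peak H, chr3L:17981274-17981374: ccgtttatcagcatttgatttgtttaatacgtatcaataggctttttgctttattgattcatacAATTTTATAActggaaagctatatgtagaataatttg
Peak J, chr3L:17978524-17978624: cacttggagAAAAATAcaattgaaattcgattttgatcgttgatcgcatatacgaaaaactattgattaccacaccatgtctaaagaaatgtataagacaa
In these sequences the run of A and T is between 7 and 11 bases long. In D, F, C and H its centre lies 17, 13, 10 and 18 bases from the summit, whereas in J it lies 38 bases away on the other side. These are the summits of the reproducible list. For F and J the summits of the overlapping or nearest regions in replicates 1 and 2 lie outside the printed window. In the sequence before the RC start site the run covers the bases from 15 to 6 upstream of that site.

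Signal scores, which the authors' peak caller assigned and whose scale is not stated, ran at the locus from 127 at peak E to 1044 at peak D, with a median of 399. Over all 5056 reproducible peaks they ran from 109 to 2606 with a median of 193, and 8 of the 10 Eip75B peaks stood above that median. The number of summits was 0.849 per 10 kb over the 117744 bp from 2 kb before to 2 kb after the gene, 2.25 times the 0.378 per 10 kb over the 6 chromosome arms. The weakest member, peak E, held rank 4266 in the list. The strongest candidate of the locus outside the list had a pooled score of 105 and rank 5244, and its region overlapped peak A. The nearest reproducible summits beyond the 2 kb limit lay 13476 bp from the gene body on the upstream side and 93867 bp on the downstream side.

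The peaks fell into 3 stretches of the gene. Peaks A and B flanked the most upstream start site, that of isoform RF, with 2046 bp between their summits. A gap of 51.3 kb without a reproducible summit followed, and then 5 peaks, C to G, lay within 12.1 kb, of which the last was at the RC start site. The last 3 peaks, H to J, began 18482 bp further on. This grouping was made after the positions were seen.

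**Figure D1:**
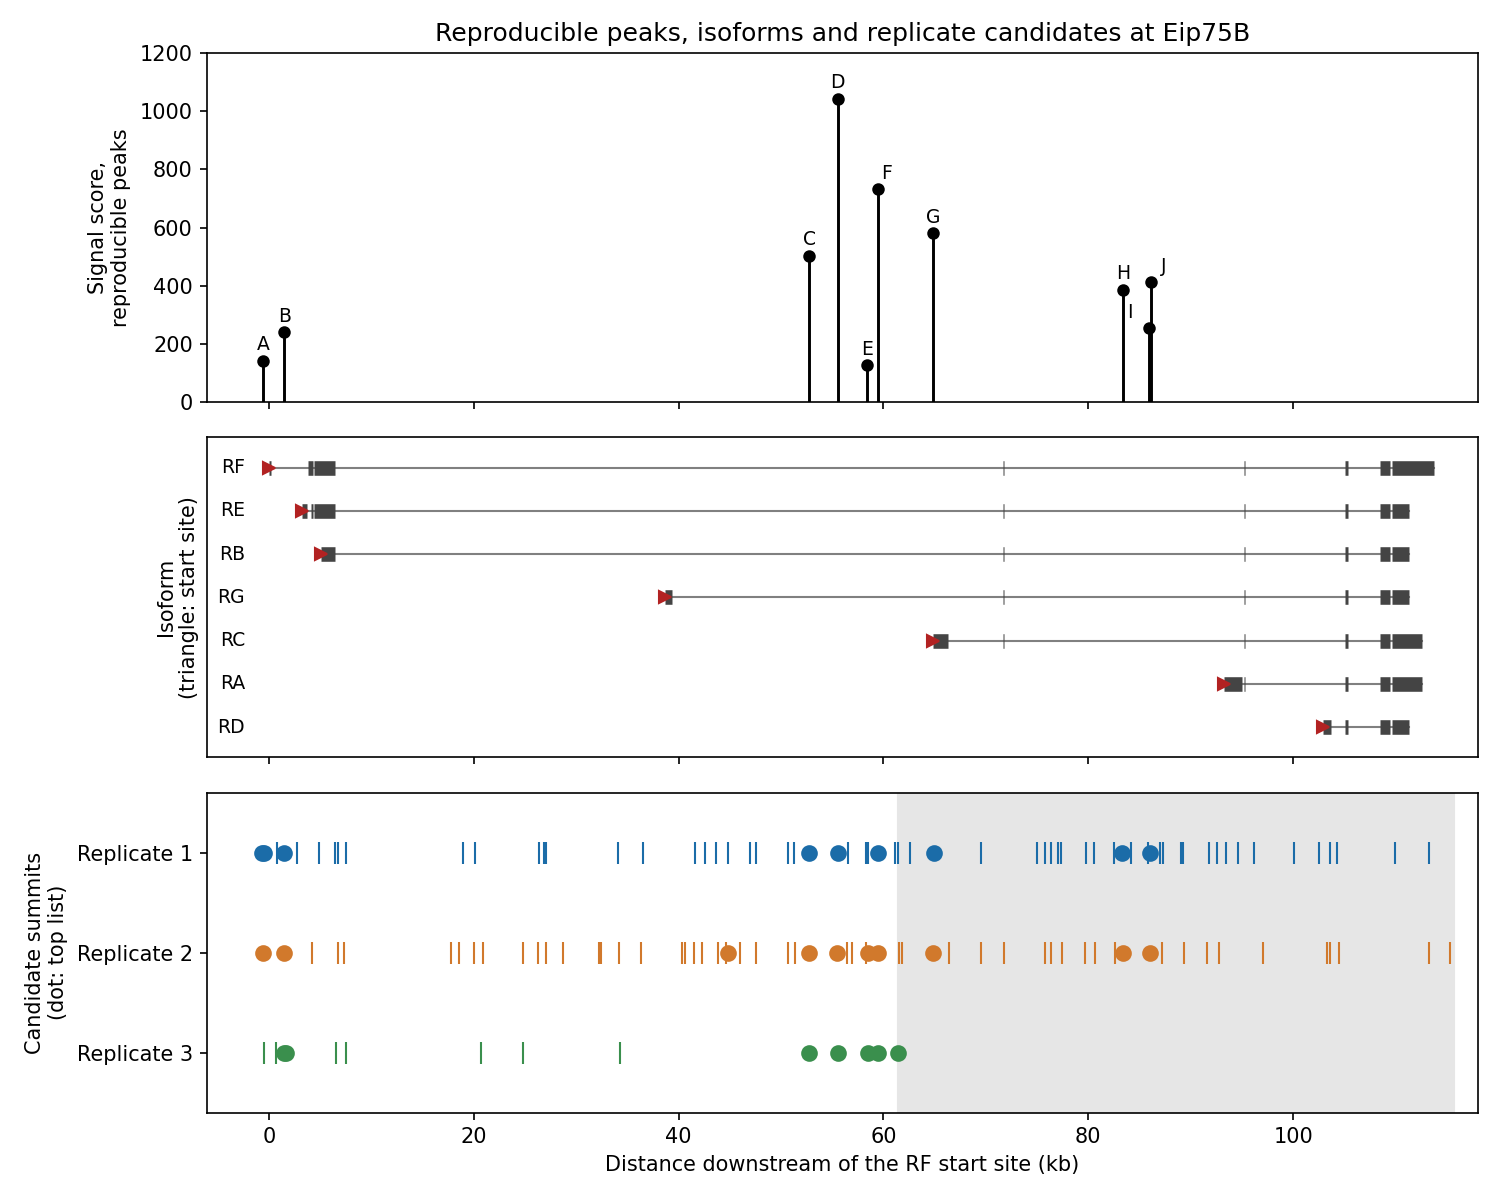
Signal score of each reproducible peak (top), exons and start sites of the 7 isoforms (middle) and summits of the candidate regions of each replicate (bottom, ticks; dots mark the 5056 strongest of a replicate), against the distance downstream of the RF start site in kb. Peaks C to G stand in 12.1 kb before and at the RC start site, and the grey area is the 54.3 kb of the locus without a candidate in replicate 3.

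Of the 7 start sites, that of RC held a reproducible summit within 500 bp. Peak G (chr3L:17999631-17999948, signal score 581, rank 396) had its summit at 17999806, 15 bp downstream of that site and inside exon 1 of RC, which the annotation gives as 5′ untranslated there. The summits of its regions in replicates 1 and 2, 17999774 and 17999822, lay to either side of the RC start site at 17999821. Replicate 3 had no region at peak G. RC is the isoform that encodes protein isoform C. Peak A (chr3L:18065018-18065437, signal score 142, rank 3738) missed the 500 bp window of RF by a small margin, with its summit 532 bp upstream of the start site. So 1 of the 10 summits lay within 500 bp of a start site of a protein-coding gene, where 23.8% of all reproducible summits did. Both values come from the list that chose the members, and nothing is read from the difference.

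The other start sites differed in how far the nearest summit was. For RE and RB, which open 3.2 and 5.1 kb downstream of RF and share its coding exons, the nearest summit was that of peak B, 1729 and 3584 bp upstream. RG, whose start site is 38.7 kb from that of RF, had its nearest summit 14113 bp downstream, at peak C. RA and RD, at 93.3 and 102.9 kb, had none downstream of their start sites, and their nearest was peak J, 7135 and 16760 bp upstream. In weaker candidates the start sites were not all empty: within 500 bp of RA there were regions at rank 9793 in replicate 1 and 14106 in replicate 2, and within 500 bp of RD at 17855 and 17999. The RE and RB sites held a region in replicate 1 alone, at ranks 19554 and 17686. The RF site, again in replicate 1 alone, held the stronger region of rank 2843 that overlaps peak A. The RG site held no candidate in any list.

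Introns held most of the peaks. For 8 of the 10 the summit was intronic in every isoform whose transcription unit contained it, for G it was in an exon of RC, and A lay upstream of all isoforms. Introns also make up most of the gene body. The same share over all reproducible peaks was not computed, so nothing is read from this count. Peak B (chr3L:18062972-18063391) lay in intron 1 of RF, 1514 bp downstream of the RF start site. Its signal score was 240.3. Peaks C to F lay in the intron of 65240 bp that is intron 1 of RB and intron 3 of RE and RF, and in intron 1 of RG, which is 32334 bp long. The same peaks were upstream of the RC start site, by 12098, 9355, 6443 and 5371 bp. Peaks H to J lay in an intron of 23400 bp that is intron 2 of RB, RG and RC and intron 4 of RE and RF, 9885 to 7135 bp upstream of the RA start site. The units of RF, RE, RB, RG and RC thus contained 9, 8, 8, 8 and 4 summits, and those of RA and RD contained 0.

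Peak D was the strongest of the locus and ranked 74 of 5056. It covers chr3L:18009022-18009343 and its overlapping regions ranked 128, 87 and 46 in replicates 1, 2 and 3, with signal scores of 366, 353 and 311. All 3 replicates thus placed it among their strongest regions, and their summits were 6, 12 and 0 bp from that of the reproducible list. Peak C, with a signal score of 502, ranked 615, 526 and 460 in the 3 replicates, with scores of 193, 183 and 125. Peak B ranked 2025, 1767 and 1773, with scores of 97.9, 95.1 and 53.7. Its summits in replicates 1, 2 and 3 lay 47, 4 and 143 bp from that of the reproducible list. Over all peaks of the locus with an overlapping region this shift was 5 to 127, 4 to 108 and 0 to 143 bp in the 3 replicates. Peaks B, C and D were the 3 that lay in the top list of every replicate, a top list being the 5056 strongest regions of a replicate. Over all reproducible peaks that share was 56.6%.

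Peaks F, E and A were supported unequally. Peak F (chr3L:18005000-18005239, signal score 731) ranked 140 in replicate 2 and 203 in replicate 3. Replicate 1 had no region overlapping it, but a region that began 14 bp away ranked 371 with a score of 243. The summit of that region, at 18005257, was near that of the replicate 2 region, at 18005247, and both lay past the end of peak F. The replicate 2 region began at 18005202, inside peak F, and that of replicate 1 at 18005253. The overlap in replicate 2 and its lack in replicate 1 thus rest on where the regions begin. Over all reproducible peaks 0.435% had no candidate in replicate 1. A second pooled region, with a score of 96.3 and rank 5709, overlapped both the end of peak F and that region of replicate 1. Peak E ranked 5265, 4402 and 4917, so that replicate 1 placed it just outside its top list. Peak A ranked 2843 and 4310 in replicates 1 and 2 and 10922 in replicate 3, with scores of 77.9, 50.6 and 19.96.

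Peaks G, H, I and J had no candidate region of any rank in replicate 3. In replicates 1 and 2 peak G ranked 360 and 472, with signal scores of 246 and 193. Peak H (chr3L:17981294-17981429, signal score 386) ranked 900 and 824, with scores of 158 and 146. Both peaks stood higher in replicates 1 and 2 than peak B, which all 3 replicates listed. Why replicate 3 listed peak B and not these was not tested. Peaks I and J, with pooled scores of 254 and 412, overlap by 111 bp and have summits 199 bp apart. In replicates 1 and 2 they corresponded to a single region, ranked 790 and 912, so they are not independent of each other. Such an absence in replicate 3 concerned 4 of the 10 Eip75B peaks and 16.4% of all reproducible peaks. In the top lists of replicates 1 and 2 together there were 8 of the 10, against 73.5% of all.

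**Figure D2:**
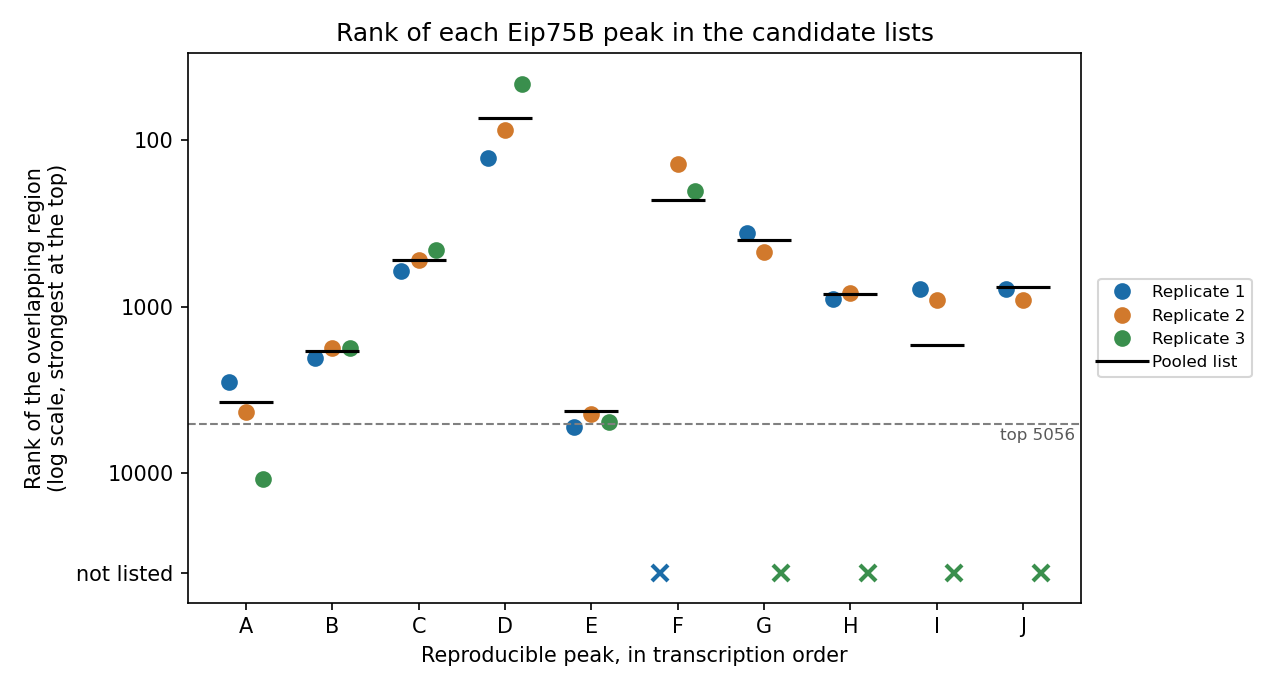
Rank of the region that overlaps each Eip75B peak in each replicate list and in the pooled list (log scale, strongest at the top); crosses mark peaks with no overlapping region, and the dashed line is the limit of the 5056 strongest. Peaks B, C and D are above the line in all 3 replicates, and G, H, I and J have no region in replicate 3.

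The absence in replicate 3 covered a continuous part of the locus. Between the candidate summits at 17944847 and 18003233 there were 58386 bp in which replicate 3 had 0 candidates, whereas replicate 1 had 32, replicate 2 had 25 and the pooled list had 17. That stretch runs past the downstream end of the locus. The 54.3 kb of it inside the locus held 30 candidates of replicate 1 and 24 of replicate 2. The stretch takes up 46.0% of the gene body and holds the start sites of RC, RA and RD. In the 63.5 kb of the locus outside it, replicate 3 had 14 candidates, or 2.21 per 10 kb. There replicates 1 and 2 had 32 and 35 candidates, 5.04 and 5.52 per 10 kb. Replicate 3 had 2.24 per 10 kb over all arms, a value that includes its stretches without a candidate and so is not a like measure. The whole stretch of 58386 bp, with its part beyond the locus, had a GC content of 42.8%, and the locus outside it 38.0%. What base composition has to do with the absence was not tested. Replicate 3 had 146 such stretches in the genome, each without a candidate where the other replicates had at least 10, and that at Eip75B was the 58th by length; replicate 1 had 7 and replicate 2 had 2. They held 246 of the 827 reproducible peaks that replicate 3 lacked. What part depth or quality of the replicate 3 library has in this was not tested, since the files hold no read counts.

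Over the whole locus the lists held 62, 59 and 14 candidates in replicates 1, 2 and 3 and 45 in the pooled list, 5.27, 5.01, 1.19 and 3.82 per 10 kb. Each list of 30000 regions had 2.24 per 10 kb over all arms, so that Eip75B was above it in replicates 1 and 2 and below it in replicate 3. In the pooled list 26.7% of the candidates of the locus overlapped a reproducible peak, against 19.3% of all pooled candidates. The 10 peaks that chose the locus are themselves pooled candidates and are counted in this share, so nothing is read from the difference. Of the 35 other candidates of the locus 2 overlapped a reproducible peak. The 35 candidates below the threshold had pooled scores from 32.4 to 105, with a median of 48.7, and 25 of them overlapped no candidate in replicate 3, against 44.2% of all pooled candidates below the threshold.

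The gap of 51.3 kb between peaks B and C was not empty of candidates. It held 21, 26 and 7 in replicates 1, 2 and 3 and 19 in the pooled list, of which none passed the threshold. It contains the start sites of RE, RB and RG and the genes nested in the intron, CG32192, CG42393 and lncRNA:CR45922. Within it a roo transposable element of 8999 bp held 0 candidates in every list; how the authors treated reads that match several copies of an element is not given in the sources used here. Of the 4 nested genes lncRNA:CR45921 alone held a reproducible summit, that of peak H, which lay 3 bp inside its 3′ end. The nearest protein-coding neighbours, CG5290 and CG44006, 38388 and 4032 bp from the gene body, held 0 reproducible summits.

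Widths differed along with the scores. The commonest width was 420 bp, that of 69.9% of all reproducible peaks. Peaks A, B, E and I had that width, while the other 6 were 136 to 322 bp wide. Over all peaks the median signal score was 158 at 420 bp and 394 at smaller widths. The 4 Eip75B peaks of 420 bp were likewise the 4 weakest of the locus.

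The base composition of the summits was not used to choose the gene. GC content in the 101 bp around the 10 summits averaged 28.7% ± 5.52 (SD, n = 10 windows), from 20.8% at peak A to 37.6% at peak C. In windows 400 bp to each side it averaged 46.7% ± 6.43, and the summit was lower than its flanks in 10 of 10 peaks. Over all reproducible peaks the summits were lower in 91.7%, with means of 30.9% ± 7.12 and 45.1% ± 6.65 (SD, n = 5056). At peaks A and B the contrast was wide, 20.8% against 54.5% and 22.8% against 56.9%, whereas at C and I it was small, 37.6% against 38.6% and 36.6% against 37.1%. Windows of 1 locus are not replicates, and no test was made.

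**Figure D3:**
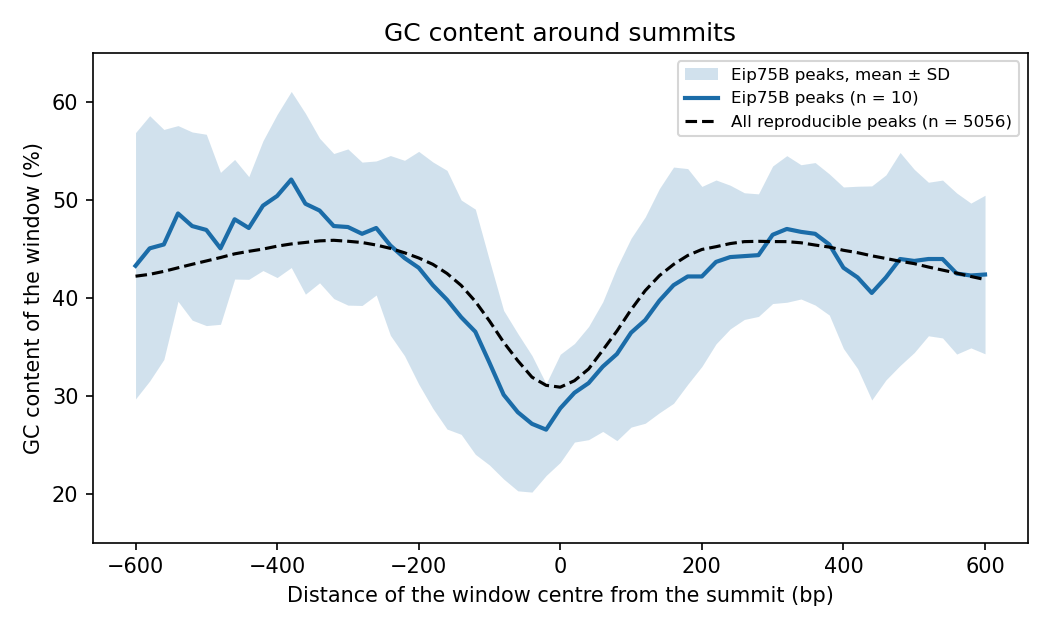
Mean GC content (%) of 101 bp windows against the distance of the window centre from the summit in bp on the plus strand, for the 10 Eip75B peaks (line, with the SD as a band) and for all 5056 reproducible peaks (dashed). Both lines have their minimum near the summit, where the Eip75B mean is 28.7% and that of all peaks 30.9%.

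The 10 motifs searched were short words without mismatches, on either strand of the 101 bp windows. AGGTCA, the hexamer to which nuclear receptors bind, was in the window of 1 peak (I) and in 2.02% of all summit windows. Its longer forms, TAGGTCA, a site of Hr3 and of the Eip75B protein in fly, and CAAGGTCA, a site of ftz-f1, were in 0 of the 10, against 0.534% and 0.198%. GAGAG, the core of GAGA factor sites, was in 3 (C, E and G; 8.19% of all), and in peak G it is part of the bases directly before the AT run printed above. TATAAA was in 3 (D, F and H; 25.2%), and TTTAAA in 4 (A, E, G and I; 23.5%). AAAAAA was in 4 (30.1%) and ATATTA in 2 (23.7%). TATCGATA, the DRE, and CAGGTAG, a Zelda site, were in 0 (0.218% and 0.297% of all). In the 20 flanking windows of the locus AAAAAA occurred in 6, GAGAG in 3, TATAAA and ATATTA in 2 each, AGGTCA and TAGGTCA in 1 each, and the other 4 motifs in 0. TAGGTCA and CAAGGTCA contain AGGTCA, so their counts are not separate from its own. A match is a description of the letters only.

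Among genes of like length Eip75B was in the upper part of the range but not at its end. The annotation holds 307 protein-coding genes of 50 kb or more, and their median was 0.289 summits per 10 kb, with a highest value of 3.05. Eip75B was the 55th by summits per 10 kb, and by number of summits it shared the 20th place with 8 other genes. The 5 genes closest to it in summits per 10 kb were shot, a linker of actin and microtubules (0.855), jvl (0.858), RhoGEF64C (0.837), px (0.836) and Prosap (0.829). They held 7, 5, 9, 6 and 7 summits, of which 0, 1, 0, 1 and 0 had no candidate in replicate 3. Their highest signal scores ran from 160.1 at jvl to 514 at px, below the 1044 of Eip75B. The likeness is in the number of summits per length alone.

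Eip75B was also set beside a list of 27 genes, the 21 nuclear receptor genes with it among them and 6 other genes of the ecdysone cascade, which was chosen with earlier results of these data known. Of the 27, 21 held a reproducible summit in the body or within 2 kb, 16 of the 21 receptors and 5 of the 6 others, against 21.8% of 13945 protein-coding genes; gene length was not matched in this count. The highest values, 3.99, 2.74 and 2.68 summits per 10 kb, were those of usp, the partner of the ecdysone receptor, ERR and Hr78, short genes with 3, 2 and 2 summits. Eip75B was 11th with 0.849. EcR, the ecdysone receptor, had 6 summits (0.704 per 10 kb), Hr3 had 8 (2.14), Hr4 had 14 (2.00) and ftz-f1 had 3 (0.548). Eip74EF, an early gene that encodes an ETS factor, had 8 (1.24) and the highest signal score of the list, 1146, and br, the early gene broad, had 1 (0.107). Hr51, Hr96, dsf, kni, tll and Kr-h1 had 0.

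**Figure D4:**
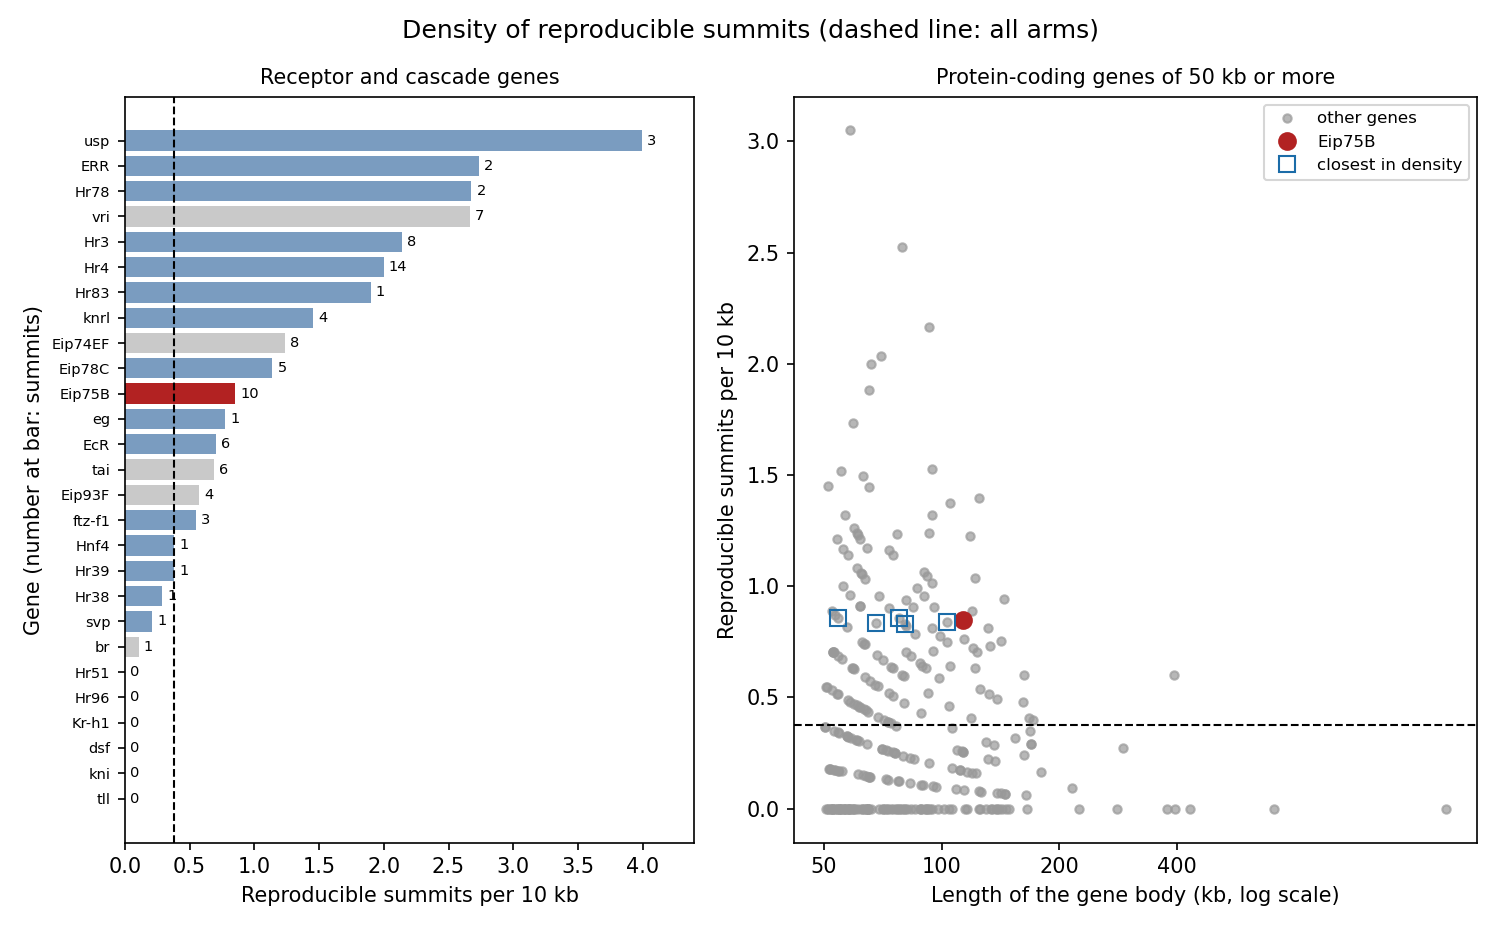
Left, reproducible summits per 10 kb at the 27 listed genes (blue, nuclear receptors; red, Eip75B; grey, other cascade genes), with the number of summits at the end of each bar. Right, the same for protein-coding genes of 50 kb or more against gene length (log scale); the dashed line is the 0.378 per 10 kb over all arms, above which Eip75B stands at 0.849.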

How the data were processed

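Regions were read from peak lists that the authors deposited in build dm6: 1 candidate list of 30000 regions for each of the 3 replicates, 1 pooled candidate list and 1 reproducible list of 5056 peaks. Per the submitters' own descriptions of the files, each candidate list came from the alignments and a further file of unstated role, and the reproducible list from the candidate lists by an IDR threshold. The sources used here name neither the aligner nor the peak caller. The signal score (deposited by the authors, scale not stated) was used to rank and describe regions within 1 list, and lists were compared by rank. The deposited summit offset gave the summit. Read counts are not part of these lists, so depth is unknown and no interval is given. The labelled age of 48 days is not that of a prepupa and was not used. The dm3 lists were not used.

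Genes and isoforms came from release 115 of Ensembl (annotation 54 of BDGP6), and sequences were read from the Release 6 genome of RefSeq; every dm6 region lay within its arm. Overlap means 1 bp or more, and coordinates are 1-based. The overlap step was tested on simulated data. The rule for named genes takes Eip75B, the genes nested in it, the nearest protein-coding gene to each side, the listed genes by count with the 3 of highest summits per 10 kb, and the 5 genes of 50 kb or more nearest to it in that value. EcR, Hr3, Hr4, ftz-f1, Eip74EF, br and the listed genes with 0 summits were named in addition, after their values had been seen. The gene, its members and the lists were chosen with earlier results of these data known. No test was made: the design has 1 group, and the rule used the peaks themselves. The software was pandas 2.3.3, numpy 2.4.6 and matplotlib 3.10.9 under Python 3.11.15.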

Additional observations from a re-analysis of the deposited data

How the results depend on the processing

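The number of Eip75B summits was 9 or 10 and their number per 10 kb 0.764 to 0.849 with the gene body alone, with 5 kb to each side and with overlapping peaks merged. Summits near a start site numbered 2 within 1000 bp (peak A in addition) and 1 within 250 bp. The count of peaks in the top lists of all replicates, 3, became 5 with the full candidate lists, and ranged from 3 to 8 with 1 replicate left out: 5 without replicate 1, 3 without replicate 2 and 8 without replicate 3. It was 4 with top lists of double length and, in an alternative chosen after seeing the data, 4 where a region within 200 bp counted. The 4 peaks without a candidate in replicate 3 numbered 4 under every overlap rule tried. The nearest region of replicate 3 was 3105 bp or more from each of them, so no rule tried could have lowered that number. Among genes of 20 kb or more Eip75B was 216th of 1013. Mean GC of the summit windows was 28.6% with 25 bp to each side and 28.5% around the middle of the peak, and moved by less than 1 SD in the windows tried. Windows with TTTAAA numbered 7 of 10 with 100 bp to each side, where 37.2% of all summit windows held it. Windows with GAGAG stayed at 3 of 10 at that width, while its share of all summit windows rose. The flanking windows of the locus with GAGAG rose there from 3 to 7 of 20. The higher share of GAGAG at the locus thus depended on the window width, and nothing is read from it. The listed genes with a summit numbered 19 with the gene body alone and 21 with 5 kb to each side, both chosen after seeing the data. The criterion for stretches without a candidate was also chosen then. Of 37 recomputed values 6 moved. No paired analysis was possible because the samples form 1 group. Depth is unknown, so a region absent from a replicate list is not shown to be unbound there.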

Other observations

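The absence from replicate 3 was also found at other genes of the ecdysone list, at 11 of the 20 with a reproducible summit. At the 20 other nuclear receptor genes 20 of 53 reproducible summits (37.7%) had no candidate in replicate 3, and at the 6 other cascade genes 9 of 26 (34.6%), against 16.4% of all reproducible peaks. All 3 summits of usp and all 3 of ftz-f1 were without a candidate there, as were 5 of 6 at EcR and 5 of 8 at Eip74EF. At Hr4 the number was 4 of 14 and at Hr3 2 of 8. It was 0 at Eip78C, of 5 summits, and at Hr78, knrl, eg, Eip93F, Hnf4, Hr38, svp and br. Neighbouring summits are not separate instances. The stretch chrX:1988880-2050278, without a candidate in replicate 3 and with 6 reproducible summits, covers usp and part of Hr4. In the top lists of all 3 replicates were 25 of the 53 receptor summits (47.2%), against 56.6% of all. These genes were singled out after their values had been seen, the list was not chosen independently of these data, and what library depth or quality has to do with the absence was not tested.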
